A study of Mus musculus with 36 samples.

Results

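Transcripts of channels that set the rhythm of neurons were followed in forebrain and cerebellum from mice with mutations in calcium channel genes. The genes were Hcn2, Hcn3 and Hcn4, of the hyperpolarization-activated cation channels; Kcnn1, Kcnn2 and Kcnn3, of the small-conductance calcium-activated potassium (SK) channels; and Kcnma1, the pore of the large-conductance (BK) channel. All probe sets whose only gene symbol was one of these 7 names were taken, which gave 11 of the 45101 probe sets on the array, for 6 of the 7 genes (of 18194 genes with a probe set of their own). Hcn2, Hcn3, Kcnn2 and Kcnn3 had 1 probe set each, Kcnn1 had 2 and Kcnma1 had 5. Hcn4, the main pacemaker channel of the heart and of some thalamic neurons, was not analysed here.

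HCN channels open when a neuron is hyperpolarized, pass an inward current of sodium and potassium, and open more readily when cyclic AMP binds to them. SK channels are opened by calcium through bound calmodulin and shape the pause after an action potential, and BK channels need calcium and depolarization together and speed the end of each spike. In Purkinje cells, SK and BK channels respond to calcium that enters through P/Q-type channels and keep firing regular; in thalamus and cortex, HCN channels influence the rebound bursting that underlies absence seizures.

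The material was total RNA on 36 Affymetrix arrays in 12 groups of 3, one array per sample. For every one of 3 lines, named stg, tg and lh, the labels list -/- and +/+ groups from both tissues, and the only treatment given is sacrifice. The labels call every animal a mutant, including the +/+ ones, and age, strain and sex are not used here. The symbols are those of stargazer (Cacng2, a calcium channel gamma subunit and AMPA receptor partner), tottering (Cacna1a, the P/Q-type pore) and lethargic (Cacnb4, a beta subunit), recessive mutants with ataxia and absence seizures. The labels do not spell these names out, nor say whether each array is a separate animal, so p-values measure the spread between these samples.

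The tissue labels fitted the Purkinje cell and forebrain excitatory neuron markers. Among +/+ arrays, the Purkinje cell transcript Pcp2 read 6061 to 9191 in cerebellum and 12.7 to 202 in forebrain. All 9 Purkinje cell markers tested were higher in cerebellum, and all 5 forebrain excitatory neuron markers were lower there. One of these 5, Slc17a7 (-0.65), is also in the granule cell list. The cerebellar interneuron and Golgi cell list was mixed, with Grm2 (-0.99) and Sorcs3 (-1.24) lower in cerebellum and Pvalb, Kit and Slc6a5 higher. The +/+ forebrain array of tg replicate 2 correlated least with the other arrays of its tissue (mean r = 0.943, against 0.951 to 0.968 for the other 35 arrays). The stg+/+ forebrain replicates 1 and 2 and the lh+/+ forebrain replicate 3 held high pituitary transcripts, with the summed hypothalamus and pituitary list reaching 5962 in stg+/+ and 10230 in lh+/+ forebrain against at most 1156 in any other forebrain group. Tests were repeated without the first of these arrays and without the other 3 together, and the values are given where a call was lost or gained. In whole tissue, fewer cells of a type and less RNA per cell cannot be told apart.

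The sequence at the start of 5 of the 7 genes was held in RefSeq windows that run from 250 bases before to 50 bases after a transcript start (mouse build GRCm38.p6). The windows of Hcn2 and Kcnma1, whose tissue difference was small or split among probe sets, and both windows of Kcnn1, whose probe set 1449536_at was lower in cerebellum, are shown so that these starts can be compared. Capitals mark GC boxes (GGGCGG on either strand, overlapping matches counted).
Hcn2, chr10:79716384-79716683, plus strand: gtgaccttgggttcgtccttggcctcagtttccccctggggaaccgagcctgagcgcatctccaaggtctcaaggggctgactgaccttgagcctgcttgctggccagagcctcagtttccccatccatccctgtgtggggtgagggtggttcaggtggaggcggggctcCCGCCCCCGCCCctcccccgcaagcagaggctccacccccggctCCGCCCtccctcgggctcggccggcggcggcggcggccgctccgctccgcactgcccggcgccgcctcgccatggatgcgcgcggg
Kcnma1, chr14:24004156-24004455, minus strand: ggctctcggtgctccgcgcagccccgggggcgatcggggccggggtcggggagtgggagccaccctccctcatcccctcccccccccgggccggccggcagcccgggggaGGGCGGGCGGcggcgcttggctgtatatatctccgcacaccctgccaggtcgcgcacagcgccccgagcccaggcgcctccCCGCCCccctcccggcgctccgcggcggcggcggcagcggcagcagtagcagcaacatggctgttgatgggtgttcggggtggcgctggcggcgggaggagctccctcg
Kcnn1, first window, chr8:70863209-70863508, minus strand: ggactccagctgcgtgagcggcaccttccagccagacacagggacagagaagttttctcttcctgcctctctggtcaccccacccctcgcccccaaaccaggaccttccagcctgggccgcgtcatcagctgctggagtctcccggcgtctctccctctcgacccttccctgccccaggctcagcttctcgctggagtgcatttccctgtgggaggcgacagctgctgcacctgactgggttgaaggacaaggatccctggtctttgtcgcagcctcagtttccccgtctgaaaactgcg
Kcnn1, second window, chr8:70856959-70857258, minus strand: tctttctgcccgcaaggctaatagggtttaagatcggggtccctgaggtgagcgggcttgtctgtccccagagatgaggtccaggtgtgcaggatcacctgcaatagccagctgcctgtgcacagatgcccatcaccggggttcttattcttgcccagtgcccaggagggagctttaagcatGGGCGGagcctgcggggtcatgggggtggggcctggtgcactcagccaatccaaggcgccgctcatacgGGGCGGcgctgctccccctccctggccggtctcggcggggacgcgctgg
The Hcn2 and Kcnma1 windows held 3 GC boxes each, with a G+C content of 72.3% and 78%. The Kcnn1 gene had 2 annotated starts that differ, one with 0 GC boxes and 62.3% G+C and the other with 2 and 64.3%. Across all 32851 windows, 35.7% held a GC box and the median G+C content was 52.7%. A match describes the letters in a window and shows no binding.

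Signals are given in the arbitrary units of the deposited values, and changes on the scale of log2(signal + 2.98), which understates the change of dim probe sets. A probe set was called when its adjusted p in limma was below 0.05. Levels of different probe sets are not compared, because each has its own probes.

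Between the tissues of +/+ mice, 7 of the 10 member probe sets tested were called, 5 lower and 2 higher in cerebellum. This share stands beside 58.2% of all 27022 probe sets tested, so a tissue difference is the usual case on these arrays and the count is not particular to these channels. Hcn3 and the Kcnn1 probe set 1419617_at fell below the intensity filter in the cerebellum fit and passed the filter of the 36 arrays through their forebrain signal. The filter therefore favoured lower values in cerebellum, and both are given below as values with no test. Of the 8 that passed in both tissues 5 were called, 2 higher and 3 lower in cerebellum, with a median change of -0.17, beside 57.1% and 0.06 over all 25276 probe sets that passed in both.

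**Figure D1:**
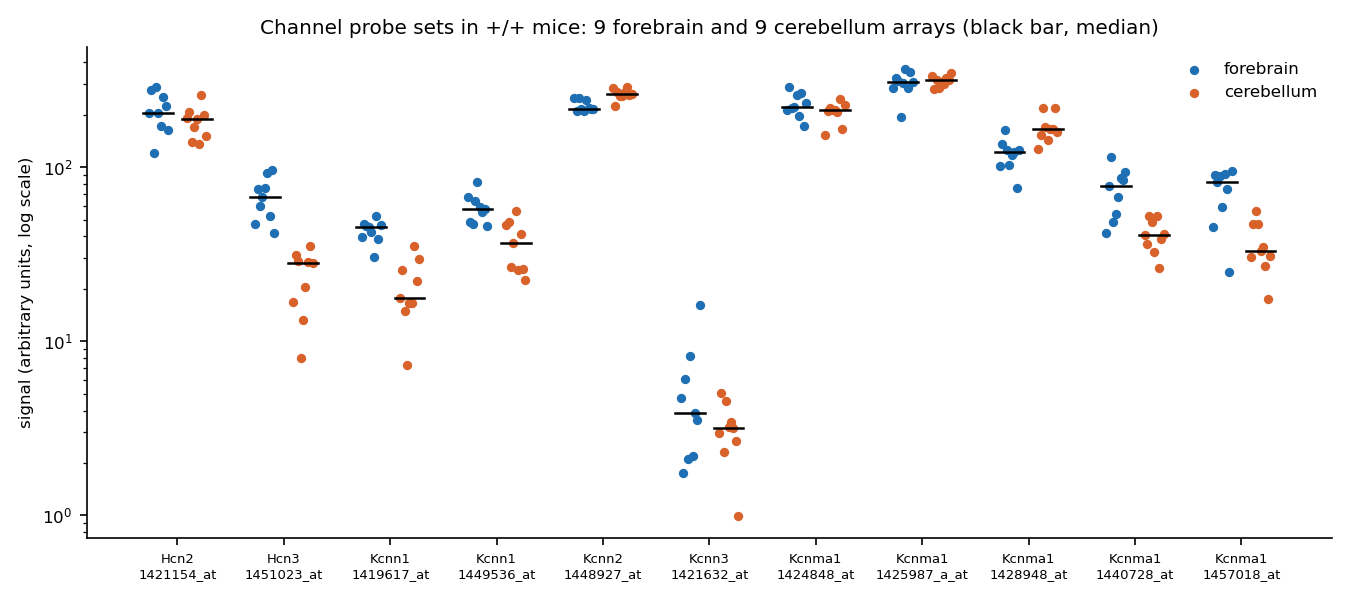
Signal (arbitrary units, log axis) of each member probe set on the 9 forebrain and 9 cerebellum arrays of +/+ mice, 1 point per array, with the median as a black bar. The Hcn3 points of the tissues do not overlap (41.6 and above in forebrain, 35.1 and below in cerebellum), and Kcnn3 lies near the floor in both; heights of different probe sets cannot be compared.

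Of the HCN channels, Hcn2 gave no call between tissues, and Hcn3 is described by its signals alone. The Hcn3 signal, of a subunit with a weak response to cyclic AMP, ran from 41.6 to 96.0 over the 9 forebrain arrays of +/+ mice (median 67.1) and from 7.99 to 35.1 over the 9 cerebellum arrays (median 28.1). Every forebrain array was above every cerebellum array. The log2 difference, cerebellum minus forebrain, was -1.47 ± 0.26 (SE), a description because the filter kept the probe set for its forebrain signal. Hcn2, the subunit found widely in thalamus and cortex, ran from 120.1 to 287 in forebrain (median 204) and from 135 to 259.7 in cerebellum (median 189), and the ranges overlapped almost wholly. Its difference was -0.19 ± 0.15 (SE; adjusted p = 0.292), with a 95% interval from -0.51 to 0.12.

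Among the SK channels, Kcnn1 was lower and Kcnn2 slightly higher in cerebellum. Kcnn1 encodes SK1, and its probe set 1449536_at ran from 45.7 to 82.2 in +/+ forebrain (median 57.7) and from 22.3 to 56.0 in +/+ cerebellum (median 36.5). Its difference was -0.68 ± 0.17 (SE; adjusted p = 0.00102), and the ranges overlapped at their edges. The second Kcnn1 probe set, 1419617_at, ran from 30.4 to 52.7 in forebrain and from 7.35 to 35.4 in cerebellum, a difference of -1.05 ± 0.23 (SE) that the filter favoured and that adds no support to the first.

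Kcnn2 encodes SK2, the SK channel of Purkinje cells. It ran from 211 to 250.4 in +/+ forebrain (median 216) and from 226 to 289 in +/+ cerebellum (median 262), so the ranges overlapped while the medians lay apart. The log2 difference was 0.22 ± 0.07 (SE; adjusted p = 0.0113), a fold of 1.17. Without the 3 forebrain arrays that held high Gh and Prl it was 0.19 and the call was lost (adjusted p = 0.0784).

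Kcnn3, which encodes SK3, stayed below the filter in both tissues and was not tested. Its single probe set read 1.75 to 16.2 in +/+ forebrain and 0.991 to 5.03 in +/+ cerebellum, around the constant of 2.98 added before the logarithm. In -/- arrays it read 1.76 to 32.8 in forebrain and 1.27 to 6.87 in cerebellum. The array at 32.8 was lh-/- forebrain replicate 3, whose group held 2.42, 5.74 and 32.8. The other groups of 3 arrays stayed at or below 16.2, the value of 1 tg+/+ forebrain array.

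The 5 probe sets of Kcnma1 did not run the same way between tissues. Probe set 1428948_at was higher in cerebellum, with 127 to 220.2 (median 165) against 75.8 to 164 in forebrain (median 122), a difference of 0.51 ± 0.11 (SE; adjusted p = 0.000187). Probe sets 1440728_at and 1457018_at were lower there, by -0.78 ± 0.20 (adjusted p = 0.00153) and -0.92 ± 0.20 (adjusted p = 0.000252) on the log2 scale. The first of these ran from 26.3 to 52.6 in cerebellum and from 41.9 to 115 in forebrain, and the second from 17.5 to 56.3 and from 25.1 to 94.96.

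The other 2 Kcnma1 probe sets showed no called difference between tissues. Probe set 1425987_a_at ran from 194 to 365 in forebrain (median 308) and from 281 to 346 in cerebellum (median 316), a difference of 0.06 (95% interval -0.12 to 0.25; adjusted p = 0.578). The remaining one, 1424848_at, gave -0.15 (interval -0.34 to 0.03; adjusted p = 0.151). It passed the threshold without tg+/+ forebrain replicate 2 (-0.21, adjusted p = 0.0393), with array weights (-0.26, adjusted p = 0.0107) and with -/- in place of +/+ mice (-0.21, adjusted p = 0.0470). Which part of the transcript each probe set reads was not analysed here, so no single tissue difference is given for the gene.

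The tissue differences of the 7 called probe sets had the same sign in each line and genotype. These probe sets were called on the mean of the +/+ groups, which favoured agreement among those groups. For Hcn3 and the dimmer Kcnn1 probe set the filter favoured the sign as well. Of the uncalled ones, Hcn2 and Kcnma1 1424848_at were also lower in cerebellum in each line and genotype, and Kcnma1 1425987_a_at took both signs. A constant sign therefore does not set the called ones apart. Hcn3 was lower in cerebellum by -2.33, -0.91 and -1.17 in stg, tg and lh +/+ mice and by -1.38, -1.42 and -1.25 in the -/- mice of these lines. Kcnn2 was higher by 0.22, 0.31 and 0.13 in +/+ and by 0.28, 0.11 and 0.19 in -/- mice. Kcnma1 1428948_at was higher by 0.46, 0.75 and 0.30 in +/+ and by 0.51, 0.59 and 0.67 in -/- mice. Kcnma1 1457018_at came nearest to an exception, at -0.05 ± 0.35 (SE) in lh-/- mice against -0.65 ± 0.35 in lh+/+ mice. In accession order the records form 2 runs, and each run holds all 12 groups. In +/+ arrays the Hcn3 difference was -1.52 in the first run and -1.32 in the second, and that of Kcnn2 was 0.26 and 0.17. That of Kcnn1 1449536_at was -0.43 and -0.96. The uncalled Kcnma1 1424848_at (-0.24 and 0.01) and 1425987_a_at (0.16 and -0.08) changed sign, and the other tested members kept theirs. The mean log2 value of Hcn2 was lower in the second run, at 7.24 against 7.74 in cerebellum and 7.33 against 7.95 in forebrain.

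**Figure D2:**
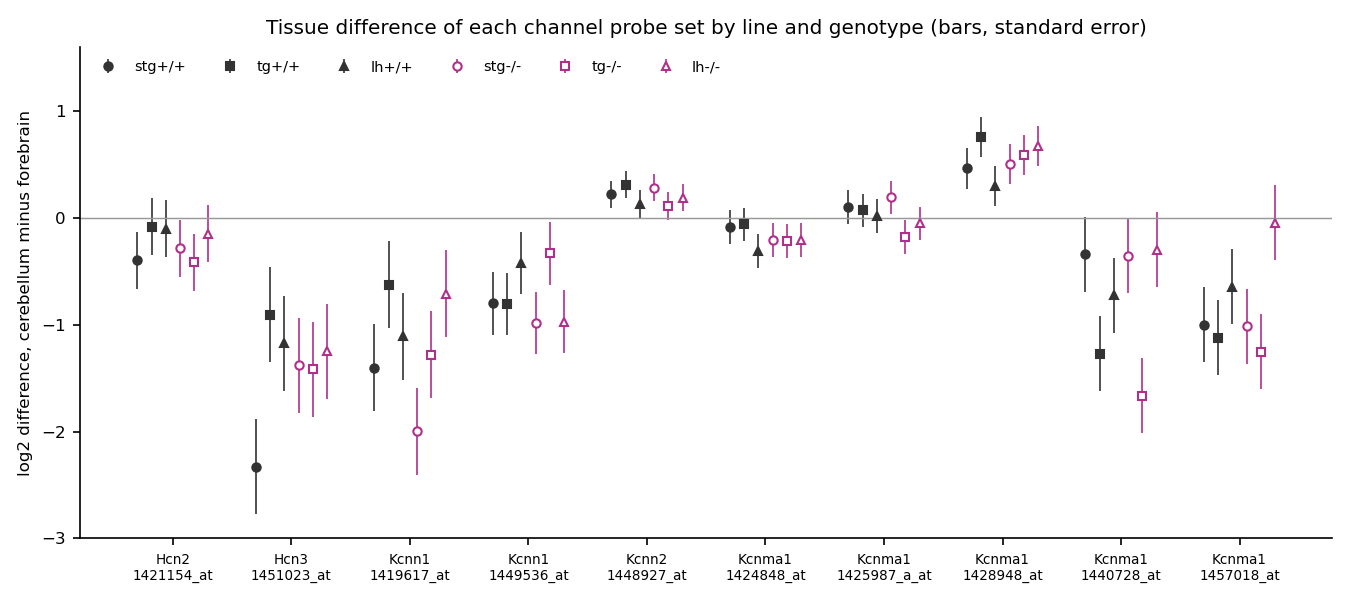
Log2 difference, cerebellum minus forebrain, of each tested member probe set in the 3 +/+ groups (filled) and the 3 -/- groups (open), from the fit over 36 arrays, with bars of 1 standard error. Hcn3 lies below 0 in all 6, from -2.33 to -0.91, and Kcnma1 1428948_at above 0 in all 6, from 0.30 to 0.75.

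In the forebrain, no member probe set was called in any line. Of the 10 tested, 0 passed in stg, 0 in tg and 0 in lh by limma, and 0 in each had an unadjusted p below 0.05. The background was as thin, with 0.0111% of all probe sets called in stg, 0.189% in tg and 0.0148% in lh, so the members' count is what this background gives. The log2 changes, -/- minus +/+, ran from -0.19 to 0.26 in stg, from -0.36 to 0.44 in tg and from -0.17 to 0.22 in lh. Their medians were -0.05, -0.06 and -0.01, against 0.00 in stg and tg and 0.01 in lh over all probe sets. The 95% intervals of the 10 reached from -0.81 to 0.97 in stg, from -0.83 to 1.17 in tg and from -0.89 to 0.75 in lh, so changes of that size in single probe sets were not resolved by 3 arrays a group.

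Forebrain Hcn2 read 287, 204 and 172 in stg+/+ and 208, 235 and 198 in stg-/- mice. In tg it read 253, 225 and 163 in +/+ and 233, 193 and 169 in -/- mice. In lh it read 204, 279 and 120.1 in +/+ and 239, 213 and 162 in -/- mice. In each line the -/- arrays lay within the range of the +/+ arrays. The log2 changes were -0.02 (95% interval -0.55 to 0.51), -0.09 (-0.62 to 0.43) and 0.08 (-0.44 to 0.61).

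Forebrain Hcn3 read 67.1, 75.5 and 92.9 in stg+/+ and 75.2, 75.3 and 87.6 in stg-/- mice. The tg arrays read 52.7, 96.0 and 41.6 in +/+ and 80.1, 45.9 and 47.9 in -/- mice. The lh arrays read 47.1, 75.2 and 60.003 in +/+ and 64.9, 44.3 and 71.7 in -/- mice. The genotypes overlapped in every line, and the tg+/+ arrays alone covered the widest span. The log2 changes were 0.02 in stg, -0.08 in tg and -0.01 in lh, each with a standard error of 0.28.

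Forebrain Kcnn1 (1449536_at) read 64.2, 82.2 and 58.7 in stg+/+ and 59.3, 66.3 and 52.0 in stg-/- mice. Values in tg were 55.6, 57.7 and 45.7 in +/+ and 53.0, 28.4 and 44.0 in -/- mice, of which 2 lay below all +/+ arrays. Values in lh were 67.1, 48.3 and 47.2 in +/+ and 61.9, 66.2 and 60.3 in -/- mice. The changes were -0.19, -0.36 (95% interval -0.83 to 0.11, adjusted p = 0.937) and 0.22. The second probe set, 1419617_at, gave 0.26, -0.18 and 0.03 in the same lines, with the opposite sign in stg.

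Forebrain Kcnn2 varied little. It read 215, 211 and 245 in stg+/+ and 191, 201 and 219 in stg-/- mice. For tg they were 219.8, 216 and 215 in +/+ and 188, 235 and 215 in -/- mice. For lh they were 249, 211 and 250.4 in +/+ and 223, 225 and 229 in -/- mice. The ranges overlapped in all lines and the means of the -/- groups lay slightly below those of the +/+ groups. The changes were -0.13 (95% interval -0.37 to 0.11), -0.04 (-0.28 to 0.20) and -0.07 (-0.31 to 0.17), the narrowest intervals among the forebrain probe sets tested.

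Forebrain Kcnma1 (1425987_a_at) read 194, 304 and 365 in stg+/+ and 252, 309.5 and 370.0 in stg-/- mice. In tg it read 285, 353 and 308 in +/+ and 357, 312 and 355 in -/- mice. In lh it read 285, 324 and 312 in +/+ and 291, 276 and 380.4 in -/- mice. The genotypes overlapped in every line, with changes of 0.14, 0.12 and 0.03. The largest forebrain change of any member was that of Kcnma1 1457018_at in tg, 0.44 ± 0.34 (SE; adjusted p = 0.959). Its +/+ arrays read 75.1, 25.1 and 94.96 and its -/- arrays 89.0, 80.9 and 67.1, so 1 +/+ array stood low. That array was tg+/+ replicate 2, and without it the change was -0.10.

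**Figure D3:**
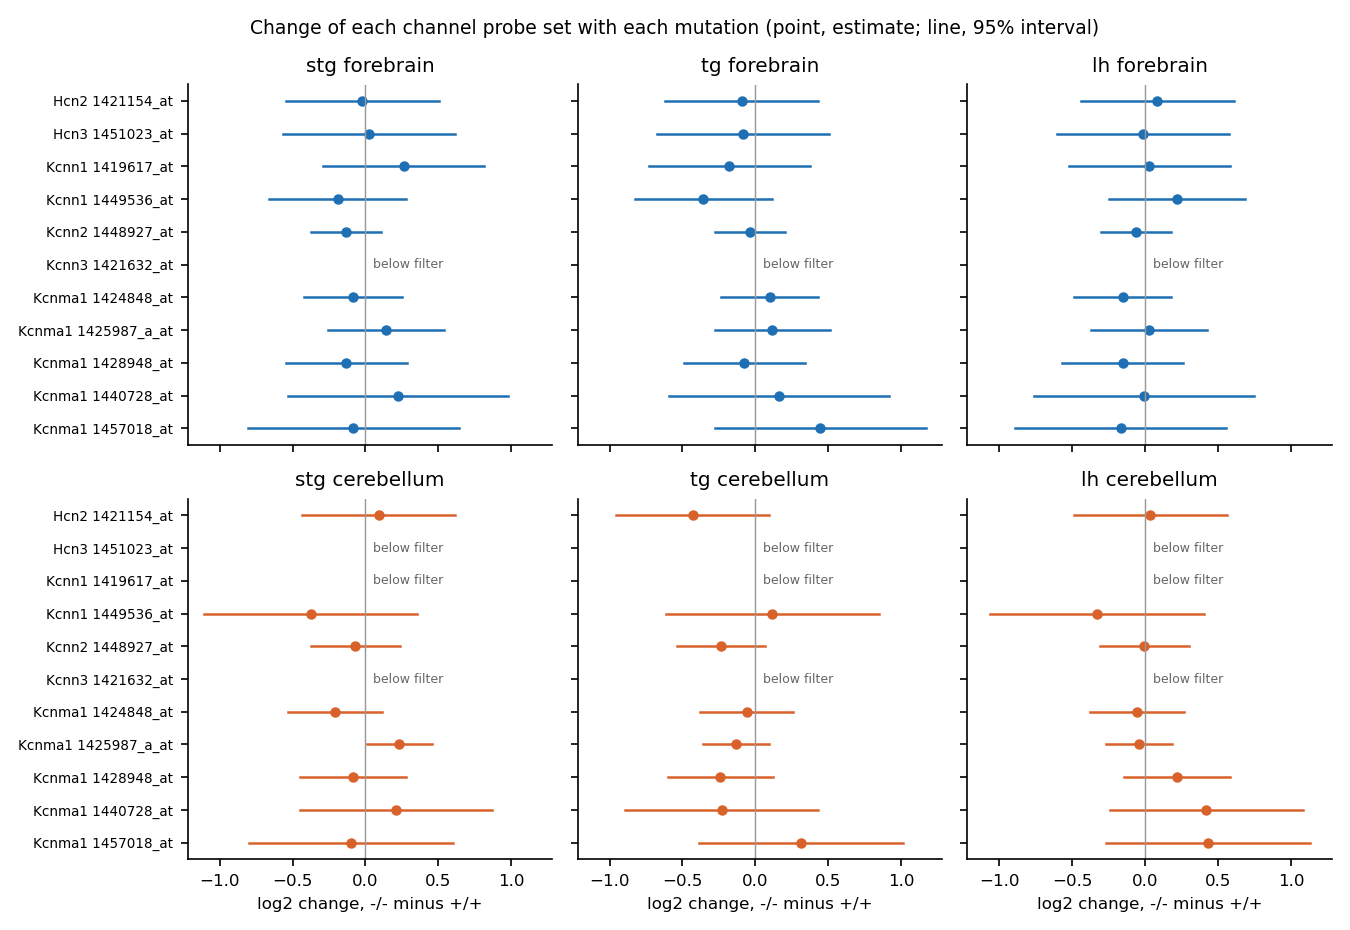
Log2 change, -/- minus +/+, of each member probe set in the 3 lines (columns) in forebrain (top) and cerebellum (bottom), with points for the estimate and lines for its 95% interval. The interval of Kcnma1 1425987_a_at in stg cerebellum, 0.01 to 0.46, is the only one of those drawn that leaves out 0, and that probe set was not called (adjusted p = 0.444).

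In the cerebellum, 0 of the 8 member probe sets tested were called in stg, 0 in tg and 0 in lh. By limma without adjustment, 1 had p below 0.05 in stg (Kcnma1 1425987_a_at), 0 in tg and 0 in lh. Over all probe sets 1.3% were called in stg, 0.574% in tg and 0.155% in lh. Same-numbered stg arrays deviated together and were taken as pairs on that ground alone. Replicate 3 had the highest correlation (0.38). It was the only cerebellum array of each stg genotype in the second record run, so pair and run cannot be told apart there. With the replicate block, fitted in every line at once, 3.77% of all probe sets were called in stg and again 0 of the 8 members. The log2 changes ran from -0.37 to 0.23 in stg, from -0.43 to 0.31 in tg and from -0.33 to 0.43 in lh. The medians were -0.08, -0.18 and 0.01, against 0.01, -0.01 and 0.02 over all probe sets. The intervals reached from -1.11 to 0.87 in stg, from -0.96 to 1.01 in tg and from -1.06 to 1.13 in lh.

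Cerebellar Hcn2 read 170.1, 189 and 135 in stg+/+ and 222, 186 and 127 in stg-/- mice. The tg arrays read 259.7, 199.9 and 151 in +/+ and 208, 141 and 108 in -/- mice. The lh arrays read 191, 208 and 139.8 in +/+ and 175, 224 and 153 in -/- mice. The tg-/- group held the lowest array and the lowest mean of the 12 groups, and still overlapped its +/+ group. Its change of -0.43 ± 0.25 (SE) was the largest of a member in tg and was not called (adjusted p = 0.814; 95% interval -0.96 to 0.10). In stg and lh the changes were 0.09 and 0.04.

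Cerebellar Hcn3 lay below the filter and was not tested. It read 7.99, 13.2 and 20.5 in stg+/+ and 52.3, 10.9 and 38.1 in stg-/- mice. Values in tg were 28.5, 35.1 and 28.1 in +/+ and 5.91, 33.4 and 30.6 in -/- mice, and in lh 16.8, 31.2 and 28.8 and 24.1, 14.6 and 34.5. The stg-/- arrays spread from 10.9 to 52.3, and 1 tg-/- array, at 5.91, lay below the rest of its line.

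Cerebellar Kcnn1 (1449536_at) read 36.5, 56.0 and 25.7 in stg+/+ and 31.4, 31.1 and 23.3 in stg-/- mice. For tg they were 41.4, 25.9 and 22.3 in +/+ and 30.6, 30.2 and 34.1 in -/- mice. Values in lh were 46.7, 48.1 and 26.6 in +/+ and 17.1, 37.7 and 43.3 in -/- mice. The genotypes overlapped in all lines. The changes were -0.37, 0.12 and -0.33, each with a standard error of 0.35.

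Cerebellar Kcnn2 read 255, 257 and 269 in stg+/+ and 188, 311 and 260.5 in stg-/- mice, a wide -/- spread around a narrow +/+ group. In tg it read 289, 259 and 262 in +/+ and 251, 230.0 and 207 in -/- mice, and every -/- array was below every +/+ array. For lh they were 283, 226 and 270.5 in +/+ and 251, 247 and 275 in -/- mice, with overlap. The changes were -0.07 (95% interval -0.38 to 0.23), -0.24 (-0.54 to 0.07) and -0.01 (-0.31 to 0.30). The tg change was not called (adjusted p = 0.842).

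Cerebellar Kcnma1 (1425987_a_at) read 284, 309 and 302 in stg+/+ and 388, 294 and 379 in stg-/- mice, where 2 -/- arrays stood above all the others and the remaining one within the +/+ range. The tg arrays read 326, 317 and 346 in +/+ and 304, 300.4 and 297 in -/- mice, with no overlap. In lh it read 336, 281 and 316 in +/+ and 309, 304 and 292 in -/- mice, with overlap. The changes were 0.23 ± 0.11 (SE; adjusted p = 0.444) in stg, -0.13 ± 0.11 in tg and -0.04 ± 0.11 in lh. Without stg-/- replicate 2 the stg change was 0.36 (adjusted p = 0.131), and without stg-/- replicate 1 it was 0.16 (adjusted p = 0.699).

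The other Kcnma1 probe sets took different signs in the same line. In stg, 1424848_at read 213, 212 and 208 in +/+ and 186, 177 and 185 in -/- mice, all lower, with a change of -0.21 (adjusted p = 0.701) while 1425987_a_at was at 0.23. In lh, 1440728_at read 40.7, 36.1 and 52.6 in +/+ and 59.1, 54.1 and 61.0 in -/- mice, all higher, a change of 0.42 ± 0.32 (SE; adjusted p = 0.840). In lh, 1457018_at read 30.5, 47.3 and 56.3 in +/+ and 57.3, 64.9 and 57.0 in -/- mice, also all higher, a change of 0.43 ± 0.33 (SE; adjusted p = 0.847). These 2 probe sets were the members most raised in lh cerebellum, and neither was called. In tg, 1428948_at read 165, 219 and 159 in +/+ and 147, 149 and 158 in -/- mice, all lower, a change of -0.24 (adjusted p = 0.906).

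Counted together, -/- and +/+ arrays did not overlap in 1 of 8 member probe sets in stg cerebellum, in 3 of 8 in tg cerebellum (Kcnn2 and 2 of Kcnma1, all lower) and in 2 of 8 in lh cerebellum (both Kcnma1, higher). Among all probe sets tested, 15.6%, 14% and 12.7% did not overlap in these lines. In forebrain 0 of 10 members failed to overlap in each line, against 7.45% in stg, 9.7% in tg and 10.7% in lh of all probe sets. With so few members these counts are not set apart from the background.

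**Figure D4:**
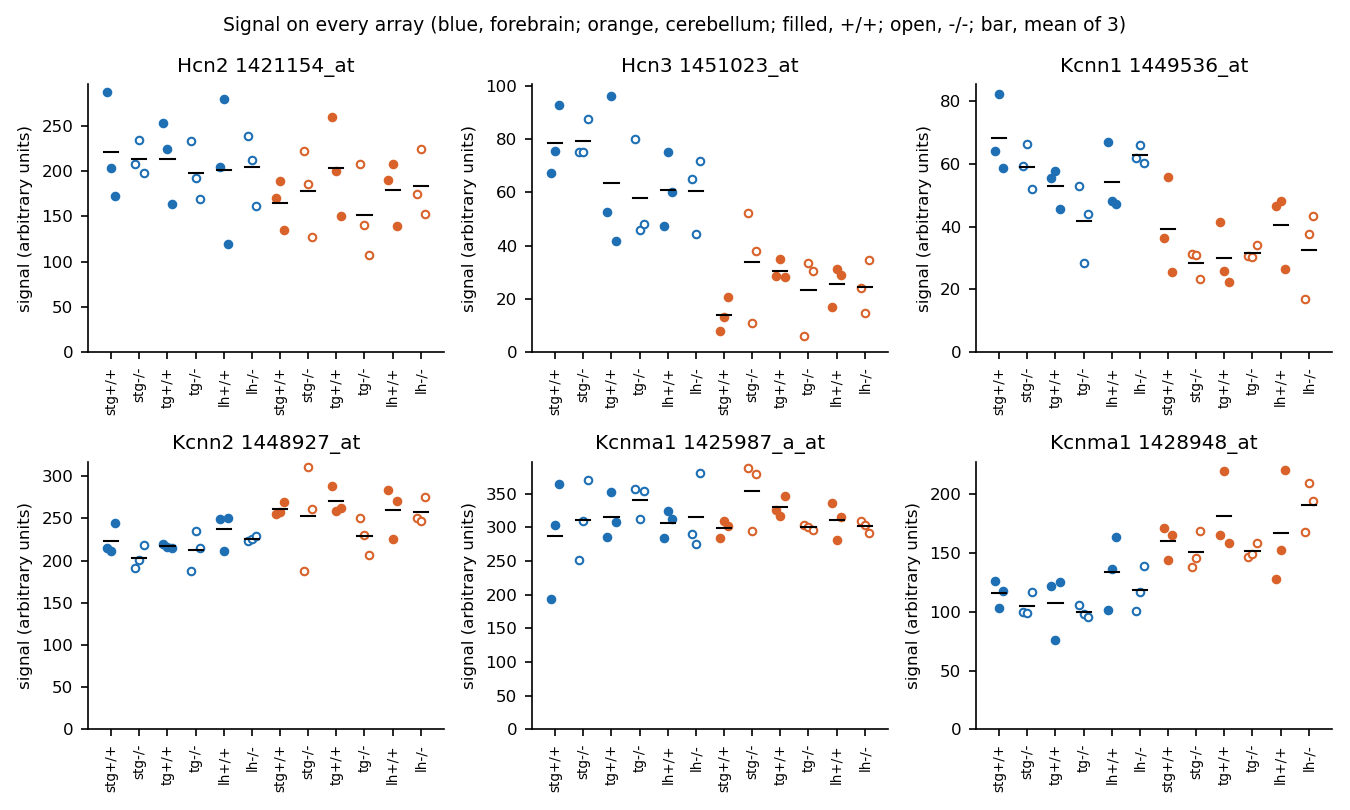
Signal (arbitrary units, linear axis from 0) of 6 member probe sets on every one of the 36 arrays, forebrain in blue and cerebellum in orange, +/+ filled and -/- open, with a bar at the mean of each group of 3. The Hcn3 group means separate the tissues, while single arrays overlap (up to 52.3 in stg-/- cerebellum, down to 41.6 in tg+/+ forebrain). No panel separates the genotypes across lines.

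No member was called for its mean effect over the lines, or as different among the lines. For the mean of the 3 effects, 0 of 10 members were called in forebrain (0 with unadjusted p below 0.05; 0.0148% of all probe sets called) and 0 of 8 in cerebellum (0 with unadjusted p below 0.05; 1.97% called). In limma's F test of a difference in effect among lines, 0 of 10 were called in forebrain and 0 of 8 in cerebellum, with 0 below 0.05 unadjusted in either, against 0.0259% and 0.315% of all probe sets. The lowest unadjusted p there was 0.0674, for Kcnma1 1425987_a_at in cerebellum. Among the 3 +/+ groups, 0 of 10 and 0 of 8 were called, with 0 below 0.05 unadjusted, against 0.414% in forebrain and 0.881% in cerebellum. In cerebellum 0 of the 8 had a change above 0 in all 3 lines, and Kcnn2 and Kcnma1 1424848_at had changes below 0 in all 3. In forebrain Kcnma1 1425987_a_at was above 0 in all 3 lines, and Kcnn2 and Kcnma1 1428948_at were below 0 in all 3. The share of all probe sets with the same sign in all lines was not computed, so these signs are descriptions.

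The effect of a mutation on a member was not called different between the tissues in any line. By limma 0 of 10 members were called in stg, 0 in tg and 0 in lh, with 0 below 0.05 unadjusted, against 0.248%, 0.0259% and 0.0111% of all probe sets. The largest difference of effects was 0.95 for Hcn3 in stg, with -/- minus +/+ higher in cerebellum than in forebrain, and the interval of the members in stg reached from -1.77 to 2.23. When the 12 group means of a probe set were ordered, neighbouring groups overlapped in 11 of 11 pairs for 9 of the 11 probe sets and in 10 of 11 for Kcnma1 1440728_at and 1457018_at. For Hcn3 the 6 forebrain groups took the 6 highest places, from 79.4 ± 7.1 (SD, n = 3) in stg-/- to 58.0 ± 19.2 in tg-/- forebrain. The 6 cerebellum groups followed, down to 13.9 ± 6.3 in stg+/+. The 6 forebrain groups also came first for both Kcnn1 probe sets and for Kcnma1 1457018_at. The 6 cerebellum groups came first for Kcnma1 1428948_at. For Hcn3 and Kcnn1 1419617_at the filter favoured this order.

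Genes that act with these channels were taken from 6 lists: partners of HCN, SK and BK channels, related Slo channels, calcium sources and enzymes of cyclic AMP. Of the partners of HCN channels, 2 of 4 tested were called between the tissues of +/+ mice, a comparison in which 58.2% of all probe sets were called; the list counts that follow are read beside that share. Pex5l, which encodes TRIP8b, the subunit that steers HCN trafficking, was lower in cerebellum by -1.47 (adjusted p = 8.86e-14), with 109 to 167 against 246 to 509 in forebrain. Flna, an actin-binding partner, was higher by 0.26 (adjusted p = 0.0235), and lost the call in 6 of 29 alternatives. One of them left out the 3 forebrain arrays with high Gh and Prl (0.19, adjusted p = 0.147). Of the SK partners 1 of 4 was called, Csnk2a1, a catalytic subunit of casein kinase 2, at -0.34.

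Of the partners of BK channels, 4 of 5 tested were called, 2 in each direction. Kcnmb4, the neuronal beta subunit, was higher in cerebellum by 0.39. Lrrc38, a gamma subunit, stood 1.25 higher there and passed the filter only through cerebellum, so 3 of 4 is the count over those that passed in both tissues. Kcnmb2, an inactivating beta subunit, was lower by -0.53 (adjusted p = 0.0599 without stg+/+ cerebellum replicate 1) and Lingo1 by -2.41, with 103 to 170 in cerebellum and 572 to 955 in forebrain. Among the sodium-activated and related Slo channels only Kcnt1 passed in both tissues, and it was higher in cerebellum by 0.81. Kcnt2 (a difference of -4.39, at 1.17 to 20.0 in cerebellum) and Kcnu1 (-1.55) passed the filter only through forebrain. The filter therefore favoured the sign of their differences, which are given as descriptions.

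Of the calcium sources, 8 of 10 tested were called. One of them, the T-type pore Cacna1h at -3.53, passed the filter only through forebrain, and of the 9 that passed in both tissues 7 were called, 3 higher and 4 lower in cerebellum. Higher ones were Cacna1a, the P/Q-type pore, at 1.55; Cacna1g, another T-type pore, at 1.49; and Ryr1, a calcium release channel, at 1.22. Of the enzymes of cyclic AMP synthesis and breakdown, 9 of 11 were called, 2 higher and 7 lower. The 4 largest were the phosphodiesterases Pde1b at -3.07, Pde1c at 1.91 and Pde10a at -1.61, and the adenylyl cyclase Adcy5 at -1.98. Striatal markers, of a region where Pde1b, Pde10a and Adcy5 are abundant, were lower in cerebellum in 4 of 4 tested; their part in these differences was not tested. Over the genes that passed in both tissues, the median tissue change was 0.07 for the HCN partners, -0.11 for the SK partners, -0.29 for the BK partners, 0.05 for the calcium sources and -0.28 for the cyclic AMP enzymes, beside 0.06 over all probe sets.

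The lists were chosen with earlier results of these data known, and each gene stood by its probe set of highest mean value. Counts of list genes called with the mutations are therefore descriptions and no test against the share of all probe sets. No gene of these 6 lists was called in the forebrain of any line or in tg or lh cerebellum. In stg cerebellum 5 of 34 tested were called, where 1.3% of all probe sets were. Pde1c fell by 1.47 on the log2 scale (SE 0.22; adjusted p = 0.00125), with 60.5 to 142 in -/- against 257 to 304 in +/+ arrays. Ryr3, a ryanodine receptor, fell by 1.47 (SE 0.26; adjusted p = 0.00453), with 22.4 to 62.8 against 92.5 to 142. Neither pair of ranges overlapped. Adcy1, a calcium-stimulated adenylyl cyclase, fell by 0.73 (SE 0.15; adjusted p = 0.0163), with 2914 to 3950 against 4581 to 6470.

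The genes that rose in stg cerebellum were Cacna1d and Lingo1. Cacna1d, an L-type pore, rose by 0.79 (SE 0.15; adjusted p = 0.00923), with 311 to 447 in -/- against 195 to 249 in +/+ arrays. Lingo1 rose by 0.63 (SE 0.15; adjusted p = 0.0411), with 228 to 246 against 134 to 170. By list, 2 of 9 calcium sources (1 in each direction), 2 of 11 cyclic AMP enzymes (both lower), 1 of 5 BK partners, 0 of 4 HCN partners, 0 of 4 SK partners and 0 of 1 Slo channels were called. Over all probe sets the share was 1.3%. The median change was 0.34 over the calcium sources, -0.05 over the cyclic AMP enzymes, 0.46 over the BK partners, 0.16 over the HCN partners and 0.02 over the SK partners, and the 1 Slo channel was at -0.32, beside 0.01 over all probe sets. Of 16 alternatives, Lingo1 lost its call in 8 (adjusted p up to 0.185), Adcy1 in 6 (up to 0.108), Cacna1d in 3 (up to 0.0700, without stg-/- replicate 3) and Ryr3 in 1 (0.0969). Markers of cell types moved in the same comparison. The thalamic markers Ntng1 (-1.15) and Slc17a6 (0.88), 2 of 7 tested and opposite in sign, the astrocyte marker Gfap (0.93), 1 of 6, and the granule cell marker Gabra6 (-0.41), 1 of 9, were called. The summed granule cell list read 26280 to 27600 in -/- and 28540 to 33570 in +/+ arrays, and the summed Purkinje cell list 41360 to 46280 and 32450 to 40650. Neither pair overlapped, although 0 of 9 Purkinje cell markers were called singly by limma. The interneuron and Golgi cell sums (12050 to 12350 and 10340 to 11950) did not overlap either. The same held for the sums of the thalamus list (3663 to 4459 and 3342 to 3460) and the brainstem list (117.5 to 143 and 173.6 to 206.4). Neither sum measures the tissue of its name here. In stg+/+ forebrain the thalamus sum was lower, at 2578 to 2855. Its member Calb2 was higher in +/+ cerebellum than in +/+ forebrain by 2.07, while Tcf7l2, Ntng1, Slc17a6 and Lef1 were lower. Slc6a5 is in both the brainstem list and the interneuron and Golgi cell list. Sums of the other cell type lists overlapped. Of all single probe sets, 15.6% did not overlap in this comparison. The part of these cell types in the 5 changes was not tested.

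Over the 3 lines together, 6 of 34 list genes tested were called in cerebellum, beside 1.97% of all probe sets. This too is a description, because the lists were chosen with earlier results of these data known. Those that held under all 27 alternatives were Cacna1d at 0.47, Adcy1 at -0.44 and the cyclase Adcy5 at 0.34. Lingo1 (0.37), Cacna1e (0.34) and Ryr3 (-0.60) were called as well and lost the call in 9, 11 and 16 of the 27 alternatives. Markers called in the same comparison were Gabra6 (-0.37) and Neurod1 (-0.23) of granule cells, Gfap (0.74) of astrocytes, Mobp (0.24) of oligodendrocytes, and Slc17a6 (0.58), Ntng1 (-0.49) and Calb2 (-0.35) of the thalamus list. Their part was not tested. Of the single lines, Calb2 was called in lh alone (-0.89, limma adjusted p = 0.0112), and its effect differed among the lines (F test, adjusted p = 0.0357). Ryr3 (-1.47) and Ntng1 (-1.15) were called singly in stg alone. A mean over the lines therefore does not show an effect shared by them. The stg effect differed between cerebellum and forebrain for Ryr3 (-1.48, adjusted p = 0.00988), a call lost without the 3 forebrain arrays with high Gh and Prl (-1.63, adjusted p = 0.0710). The difference for Cacna1d (0.90, adjusted p = 0.0409) lost its call in 11 of 21 alternatives, with an adjusted p up to 0.160. For Pde1c the effect differed among the lines (F test, adjusted p = 0.00902), with -/- means of 105, 446 and 509 and +/+ means of 281, 306 and 456 in stg, tg and lh.

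The genes whose signals ran most like each member were found from Pearson's r over the 36 arrays after the mean of each tissue was subtracted, among 12406 genes. For Hcn2 they were Ubl7 (r = 0.806), Csdc2 (0.776) and Ndufs5 (0.755), and for Kcnn1 Zbtb7b (0.720), Cabin1 (0.672) and Arhgef17 (0.663). For Kcnma1 (1425987_a_at) they were Casp8 (0.686), Yae1d1 (0.679) and 4930402H24Rik (0.654). For Kcnn2 they were Med7 (0.616), Gpsm2 (0.589) and Mpp5 (0.568), and for Hcn3 Acta1 (0.591), Ecpas (0.577) and Med12l (0.576). For Hcn2, 4.99% of all genes had r above 0.5, so its likeness was shared by many. The arrays share their scaling and hybridization, so these values describe the arrays and carry no test. Kcnn3 lay near the floor, and its nearest genes are left out.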

How the data were processed

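The members and lists were chosen with earlier results of these data known. The intensity values were analysed as the authors deposited them, on a linear scale with 1 value per probe set and array; the software and normalization behind them are not given in the sources used here. Arrays were not scaled again. Values were turned into log2(signal + 2.98), where 2.98 is the 10th percentile of all values. The 64 control probe sets were left out and those with a mean above the 40th percentile kept, 27022 in each fit. Tests used limma 3.58.1 under R 4.3.3 (lmFit, eBayes with an intensity trend, two-sided, Benjamini-Hochberg, threshold 0.05), over the 18 arrays of a tissue or, between tissues, all 36. On simulated data at 3 arrays a group, 60.6% of 198 probe sets with a log2 change of 1 were recovered in cerebellum and 65.1% of 192 in forebrain. With a change of 0.5 the shares were 9.6% of 198 and 5.13% of 195. Recovery after adjustment depends on how many probe sets change. In the data only 3, 51 and 4 were called in stg, tg and lh forebrain, so these shares need not hold there or for single members. Counts over probe sets that passed the filter in both tissues were added after the results were seen. Precision is limited by the number of arrays. Genes were named through the platform annotation. Named genes were all members and at most 4 called genes a list, by size. Cerebellum titles number the replicates; same-numbered stg arrays had correlated deviations (0.156, 0.188 and 0.380), so the replicate block is given for stg. Alternatives were the filter, constant, normalization, intensity trend, array weights, record run or replicate block, arrays in the fit and leaving out each array.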

Additional observations from a re-analysis of the deposited data

Results flagged for a closer look

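For 3 genes of the partner lists the mutation effect differed between lines or tissues by a test of the difference itself. The cerebellar effect on Pde1c differed among the 3 lines (limma F test, adjusted p = 0.00902); by itself it was called in stg, and in tg and lh it was not. The stg effect on Cacna1d was higher in cerebellum than in forebrain by 0.90 on the log2 scale (adjusted p = 0.0409), and the call was lost in 11 of 21 alternatives (adjusted p up to 0.160). The stg effect on Ryr3 was lower in cerebellum than in forebrain, with a difference of -1.48 (adjusted p = 0.00988), and the call was lost without the 3 forebrain arrays with high Gh and Prl (-1.63, adjusted p = 0.0710). No member of the channel families gave such a difference. Groups of 3 arrays are too small for the check on single far samples.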

How the results depend on the processing

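The counts of 0 members called in the 15 comparisons other than that of the tissues stayed at 0 under all alternatives run, 16 to 27 for each. The 7 members called between tissues became 2 with the filter at the 60th percentile, where 5 were tested, and ran from 7 to 8 when single arrays were left out. Kcnma1 1424848_at was called between tissues with array weights (-0.26, adjusted p = 0.0107), without tg+/+ forebrain replicate 2 (-0.21, adjusted p = 0.0393) and with -/- in place of +/+ mice (-0.21, adjusted p = 0.0470). Kcnn2 lost its call (0.19, adjusted p = 0.0784) without the 3 forebrain arrays with high Gh and Prl, which was tried only once the data had been seen. The cause was not tested. The replicate block changed no member's call in cerebellum. Over all probe sets it moved the calls from 352 to 1018 in stg, from 155 to 429 in tg and from 42 to 211 in lh. It moved those of the mean effect from 533 to 1237, of the difference among lines from 85 to 480 and of the +/+ groups from 238 to 867. Same-numbered arrays correlated at 0.292, 0.0405 and 0.244 in tg and at 0.225, 0.0948 and 0.333 in lh. Except for tg replicate 2, each correlated highest with its own number. Not all values were above the limit of 0.1, so these arrays were not taken as pairs, and whether they are pairs cannot be told. Under the block Hcn2 in tg cerebellum had an adjusted p of 0.118. With array weights, calls over all probe sets in forebrain moved from 3, 51 and 4 to 5, 117 and 9 in stg, tg and lh. Over all alternatives, calls between tissues ran from 11683 to 17153 about 15726, those in stg cerebellum from 194 to 1018, in tg cerebellum from 63 to 429 and in lh cerebellum from 6 to 211, and in forebrain from 2 to 6, 13 to 117 and 1 to 9. For the stg, tg and lh differences between tissues they ran from 33 to 133, 3 to 19 and 1 to 13. With 3 arrays a group, changes below 1 on the log2 scale are often missed, and low signals add to this for Hcn3, Kcnn1 and Kcnn3.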
